A study of Caenorhabditis elegans with 2 samples.

Results

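The nhr genes of Caenorhabditis elegans encode nuclear hormone receptors. The members described here were all protein-coding genes of the Ensembl release 115 annotation (assembly WBcel235, which is ce11) whose name is nhr- followed by a number, which gave 269 of 19985 protein-coding genes. Candidate binding sites of the transcription factor EOR-1 were assigned to an nhr gene when the summit of the peak lay inside the gene or within 2000 bp of one of its transcript starts. This gave 107 of the 6708 pooled peaks.

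The peaks came from chromatin immunoprecipitation and sequencing (ChIP-seq) of whole L3 larvae, with males and females pooled, of strain OP81 (unc-119(ed3) III; wgIs81). This strain carries an insertion with eor-1 fused to eGFP, and the labels give eor-1 as the antibody target. All samples shared this genotype and stage, and the 2 biological replicates formed 1 group, so there was no other condition to compare. Binding was read from a tagged transgene in a mixture of all tissues, and the labels do not say whether the endogenous eor-1 gene was intact. The files gave a list of 2488 peaks for replicate 1, 2610 for replicate 2, 6708 for the pooled reads and 33 kept by the authors after thresholding on the irreproducible discovery rate, called thresholded peaks here. Apart from the thresholded list, these lists were made as input for thresholding and include background regions, so an entry is a candidate only. The signal value is the authors' own value for each peak and is used only to rank peaks within a list. Read depth is unknown, and the intervals given below are exact (Clopper-Pearson) 95% binomial intervals that cover the counting of genes or peaks only.

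Nuclear hormone receptors are transcription factors with a zinc finger DNA-binding domain and, in most members, a ligand-binding domain through which small lipophilic molecules and cofactors change their activity. In nematodes the family is greatly expanded, largely by genes related to HNF4, many of them in clusters on chromosome V. A smaller number are orthologues of receptors found in insects and vertebrates, with roles in molting, dauer formation, neuronal identity and sex determination. EOR-1 is a BTB zinc finger protein related to human PLZF that acts with EOR-2 downstream of Ras and Wnt signalling.

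The ce11 sequences that follow, read from the RefSeq copy of the assembly, show what lay under the stronger nhr peaks. Each covers 100 bp on either side of the summit, on the plus strand, with GAGAGA and AGACGCA (either strand) in capitals. They were chosen as the strongest nhr peak (nhr-47, chrV:5505036-5505236), 4 peaks with a summit in both replicate lists whose window held no UTR (nhr-27, chrX:12759791-12759991; nhr-19, chrII:9603544-9603744; nhr-86, chrV:2068129-2068329; nhr-35, chrX:4532287-4532487), and the nhr-256 peak (chrV:1743560-1743760), which held AGACGCA.
nhr-47: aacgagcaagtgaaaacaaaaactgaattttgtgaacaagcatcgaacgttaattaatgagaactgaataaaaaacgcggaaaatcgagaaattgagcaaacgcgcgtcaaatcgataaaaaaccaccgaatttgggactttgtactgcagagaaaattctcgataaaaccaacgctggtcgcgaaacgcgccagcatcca
nhr-27: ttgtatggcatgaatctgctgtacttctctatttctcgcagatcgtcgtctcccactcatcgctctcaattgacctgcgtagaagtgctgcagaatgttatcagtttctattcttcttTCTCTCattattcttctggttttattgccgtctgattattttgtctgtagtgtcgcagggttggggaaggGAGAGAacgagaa
nhr-19: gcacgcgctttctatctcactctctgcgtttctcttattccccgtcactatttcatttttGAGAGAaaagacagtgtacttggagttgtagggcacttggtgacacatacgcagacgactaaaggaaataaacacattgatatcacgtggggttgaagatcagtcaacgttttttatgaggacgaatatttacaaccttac
nhr-86: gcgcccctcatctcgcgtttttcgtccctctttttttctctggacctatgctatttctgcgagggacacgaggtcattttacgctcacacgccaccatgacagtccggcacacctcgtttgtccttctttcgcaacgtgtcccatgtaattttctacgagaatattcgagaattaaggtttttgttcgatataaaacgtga
nhr-35: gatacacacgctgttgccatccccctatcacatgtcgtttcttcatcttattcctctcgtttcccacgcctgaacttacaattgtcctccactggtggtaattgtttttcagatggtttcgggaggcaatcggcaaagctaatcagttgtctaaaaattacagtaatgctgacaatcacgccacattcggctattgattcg
nhr-256: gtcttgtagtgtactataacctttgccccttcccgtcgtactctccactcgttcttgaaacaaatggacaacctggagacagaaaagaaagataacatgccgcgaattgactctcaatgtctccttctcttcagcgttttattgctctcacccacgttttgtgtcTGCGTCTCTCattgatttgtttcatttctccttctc
The nhr-47, nhr-86 and nhr-35 windows held neither motif. The nhr-27 window held GAGAGA on each strand, the nhr-19 window held it once, and in the nhr-256 window the AGACGCA match on the minus strand overlapped a GAGAGA match.

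AGACGCA and GAGAGA were searched on both strands within 100 bp of each summit. Earlier work on these same peaks had found 8-mers around AGACGCA to be most frequent in the strongest ones, so the choice of motif was not independent of the data. AGACGCA was present at 7 of 107 nhr peaks (6.54%, interval 2.67 to 13), compared with 8.54% of all pooled peaks in windows of the same length. The 7 matches follow in the orientation of the motif, with the match in capitals, and show what the surrounding bases shared.
nhr-256 (chrV:1743714-1743742, minus strand): aaatcaatgagAGACGCAgacacaaaacg
nhr-142 (chrV:5791000-5791028, minus strand): acgaatcgaggAGACGCAacttggagaca
nhr-34 (chrIV:9670148-9670176, plus strand): tcaaaaatcagAGACGCAgacagtcctag
nhr-70 (chrV:18614693-18614721, minus strand): cgaggggctagAGACGCAgacggttggaa
nhr-66 (chrIV:8229634-8229662, plus strand): gagcgaatcgcAGACGCAgacggtaagag
nhr-12 (chrV:10084277-10084305, minus strand): aataatacatgAGACGCAgacactacaaa
nhr-3 (chrX:14558163-14558191, minus strand): tcttggcgcgaAGACGCAtaagacaattc
In 5 of these 7 sites the match was followed by GAC, and in 4 of those it was also preceded by G. These flanks were not counted at the other pooled peaks with AGACGCA, so they are not read as a trait of the nhr sites. The centres of the matches lay 31 to 89 bp from the summits. The 7 peaks ranked from 995 (nhr-256) to 3835 (nhr-3) in the pooled list, so the motif was not found at the strongest nhr peaks. Among the 1000 strongest pooled peaks it was present at 1 of 18 nhr peaks (5.56%, interval 0.141 to 27.3), compared with 184 of 1000 overall (18.4%). The interval for the nhr peaks spans the overall share.

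GAGAGA was found at 35 of 107 nhr peaks (32.7%, interval 24 to 42.5), compared with 26.9% of all pooled peaks. Among the 1000 strongest it was present at 9 of 18 nhr peaks (50%, interval 26 to 74) and at 45.7% overall. It occurred at the strongest peaks of nhr-27, nhr-49, nhr-19, nhr-1, nhr-48, nhr-23 and nhr-256. The shorter GACGCA, which AGACGCA contains, was present at 8 of 107 nhr peaks (7.48%, interval 3.28 to 14.2) and at 13% of all pooled peaks. A match is a description of the sequence, and its absence says only that these letters were not in the window.

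Of the 269 nhr genes, 68 had at least 1 pooled peak (25.3%, interval 20.2 to 30.9). Over all protein-coding genes the share was 28.4%, which lies inside the interval for the nhr genes. A peak among the 1000 strongest was assigned to 17 nhr genes (6.32%, interval 3.72 to 9.93), beside 5.83% of all protein-coding genes. A pooled peak with a summit within 200 bp in both replicate lists was assigned to 5 nhr genes (1.86%, interval 0.606 to 4.28), beside 3.17% of all genes. None of the 33 thresholded peaks was assigned to an nhr gene, beside 0.2% of all genes, and with 0 of 269 genes the upper limit is 1.12% (3 counts of 269) or 1.36% (exact interval). By none of these measures did the family stand apart from the share over all genes, which stands here in place of a test.

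The signal values of the nhr peaks also covered the range of the list below its strongest entries. Their median signal was 3.1, as it was for all 6708 pooled peaks, and they ranged from 2.06 to 15.3. Their ranks ran from 88 to 6686 with a median of 3350, compared with a median of 3354 for all pooled peaks. In rank order, 1 nhr peak fell in the first 100, 6 more in the first 500, 11 more in the first 1000, 30 more in the first 3000 and 59 beyond. These were 0.935%, 5.61%, 10.3%, 28% and 55.1% of the nhr peaks. Of all pooled peaks, the same ranks held 1.49%, 5.96%, 7.45%, 29.8% and 55.3%. The last thresholded peak ranked 33 with a signal of 19.3, above every nhr peak. Of the 269 nhr genes, 44 had 1 peak, 12 had 2 and 12 had 3 or more. Over all protein-coding genes, 20.1% had 1 peak, 5.56% had 2 and 2.76% had 3 or more.

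**Figure D1:**
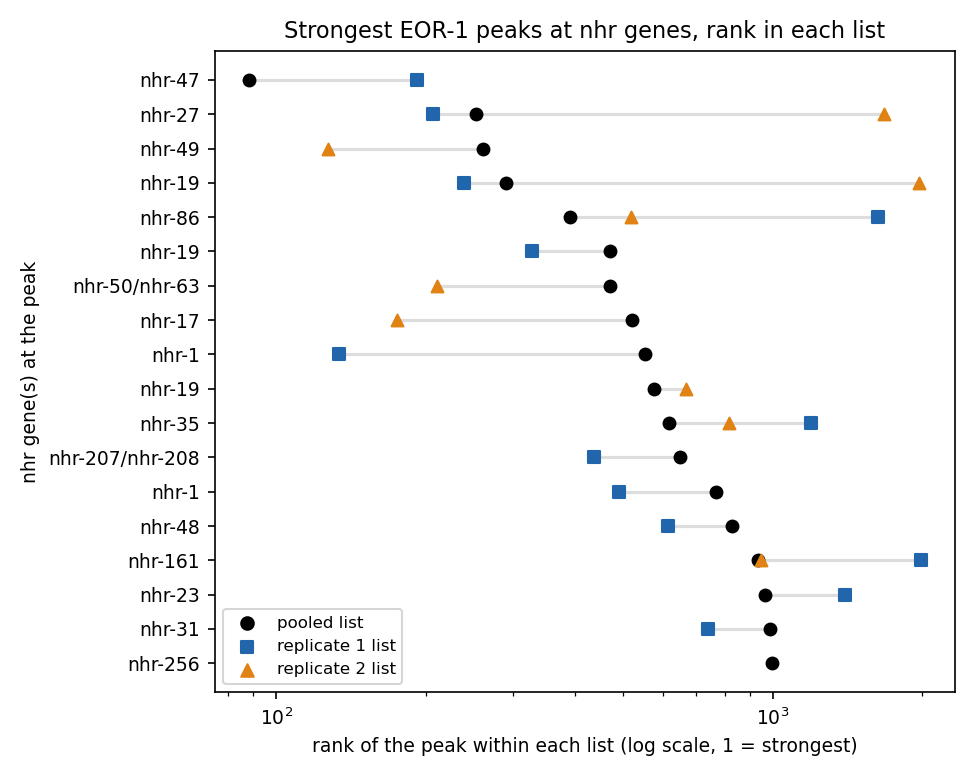
Rank of the 18 nhr peaks among the 1000 strongest pooled peaks (black circles), with the rank of the summit within 200 bp in the list of replicate 1 (blue squares) and replicate 2 (orange triangles) on a log axis where 1 is the strongest. The nhr-47 peak leads at rank 88, 5 peaks carry both replicate symbols, and nhr-256 carries neither.

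The 18 nhr peaks among the 1000 strongest were led by nhr-47. Its peak (chrV:5504934-5505337) had a pooled signal of 15.3 at rank 88 and lay 117 bp upstream of the nhr-47 start. It ranked 192 in replicate 1, with a signal of 6.71, and had no summit within 200 bp in replicate 2, where the nearest lay 286 bp away. The strongest nhr peak was therefore matched in 1 replicate at the distance used.

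The 5 peaks with a summit in both replicate lists were at nhr-27, nhr-19, nhr-86, nhr-35 and nhr-161. The nhr-27 peak (chrX:12759689-12760092) ranked 252 with a signal of 10.7, and ranked 207 in replicate 1 (signal 6.6) and 1673 in replicate 2 (signal 2.58). It lay in an intron, 48358 bp downstream of the nearest nhr-27 start, and the nearest start of any protein-coding gene was that of cept-1 at 2187 bp. With 102756 bp, nhr-27 is the longest protein-coding gene of the annotation, followed by cox-6B with 87197 bp, so the assignment of this peak rests on the gene body. The nhr-19 peak (chrII:9603442-9603845) ranked 290 with a signal of 10.1 and lay in an intron, 1606 bp downstream of a start. It ranked 239 in replicate 1 (signal 6.34) and 1965 in replicate 2 (signal 2.46). Both peaks were thus far stronger by rank in replicate 1.

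The order of the replicates was the opposite at the other 3. At nhr-86, a receptor that senses a bacterial metabolite in pathogen defence, the peak (chrV:2068027-2068430) had a signal of 8.88 at rank 390 and lay 1379 bp upstream. It ranked 517 in replicate 2 (signal 4.14) and 1629 in replicate 1 (signal 2.69), and its nearest start was that of lbp-9, a gene of the lipid-binding protein family, at 220 bp. The nhr-35 peak (chrX:4532185-4532588) had a signal of 7.38 at rank 619, lay 304 bp upstream and ranked 816 in replicate 2 (signal 3.42) and 1193 in replicate 1 (signal 3.07). The nhr-161 peak (chrV:6982630-6983033) had a signal of 6.08 at rank 934, lay in an intron 81 bp downstream of the start, and ranked 945 in replicate 2 (signal 3.16) and 1988 in replicate 1 (signal 2.43). Of the 18 peaks, 9 were among the 1000 strongest of replicate 1 and 7 among those of replicate 2, and 0 were among the 1000 strongest of both. This overlap was not counted over all pooled peaks, so it is not read as a trait of the nhr peaks.

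The strongest peak at nhr-49, which regulates fat metabolism and the responses to fasting and oxidative stress, ranked 261 with a signal of 10.5 (chromosome I, 9869020 to 9869423) and lay 429 bp upstream of the start. It ranked 127 in replicate 2 (signal 6.73) and had no counterpart in replicate 1. The gene held 3 further peaks, at ranks 1185, 1237 and 4877, of which the first was matched in replicate 2 and the other two in replicate 1. All 4 nhr-49 peaks thus had a summit in a replicate list, but none in both.

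The nhr-19 gene held 6 pooled peaks, more than any other nhr gene, with summits spread over 4192 bp of a gene of 7347 bp. Besides the peak at rank 290, its peaks ranked 469 with a signal of 8.32, matched in replicate 1 at rank 327, and 577 with a signal of 7.61, matched in replicate 2 at rank 670. The other peaks of nhr-19 ranked 2544, 2637 and 4648 and had no summit in either replicate list. Of the 6, 5 lay in introns and the weakest in the 5′ UTR, 23 bp from a start.

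The remaining peaks among the 1000 strongest were each matched in a single replicate, apart from nhr-256. At nhr-50 the peak lay in the 5′ UTR, 11 bp downstream of the start, with a signal of 8.32 at rank 470, and ranked 211 in replicate 2. It was also 1998 bp upstream of nhr-63, just within the distance used. At nhr-17 an intronic peak had a signal of 7.93 at rank 521, and ranked 175 in replicate 2. At nhr-1 a peak 469 bp upstream had a signal of 7.74 at rank 552 and ranked 134 in replicate 1, and an intronic peak had a signal of 6.62 at rank 768 and ranked 489 in replicate 1.

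Weaker entries of the same group were found at nhr-207, nhr-48, nhr-23, nhr-31 and nhr-256. The peak 153 bp upstream of nhr-207, within 2000 bp of the nhr-208 start as well, ranked 651 with a signal of 7.17 and 436 in replicate 1. The peak in an intron of nhr-48, a receptor related to the vertebrate vitamin D and pregnane X receptors, ranked 826 with a signal of 6.48 and 615 in replicate 1. The intronic peak of nhr-23, the orthologue of the ROR receptors and a regulator of molting, ranked 962 with a signal of 6.01 and 1394 in replicate 1. At nhr-31, which controls vacuolar ATPase genes in the excretory cell, the intronic peak ranked 987 with a signal of 5.94 and 741 in replicate 1. The nhr-256 peak, 111 bp upstream, ranked 995 with a signal of 5.92 and was in neither replicate list. It was the last inside the 1000 strongest, and the first outside was the nhr-49 peak at rank 1185 with a signal of 5.45.

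Over all 107 nhr peaks, 5 had a summit in both replicate lists (4.67%, interval 1.53 to 10.6), 25 in replicate 1 only, 23 in replicate 2 only and 54 in neither (50.5%). Over all pooled peaks, 7.8% had a summit in both, 23.4% in replicate 1 only, 20.6% in replicate 2 only and 48.2% in neither. All 5 nhr peaks matched in both replicates were among the 1000 strongest, where they made up 5 of 18 (27.8%, interval 9.69 to 53.5) compared with 42.8% of all peaks of those ranks. Below rank 1000, 0 of 89 nhr peaks were matched in both (upper bound 4.06%), compared with 1.66% overall. Pooled peaks rest on the same reads as the replicate lists, which builds in part of this support.

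**Figure D2:**
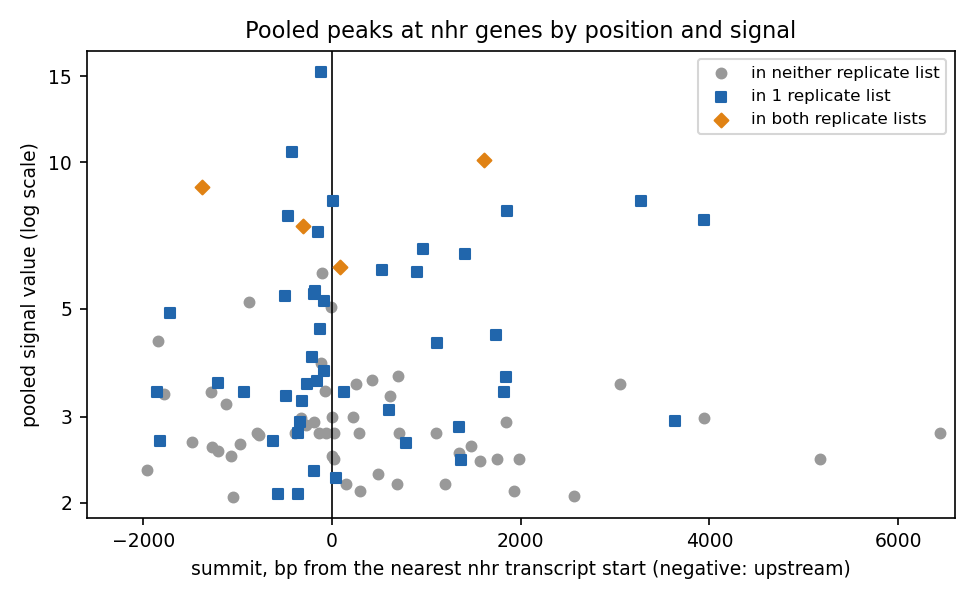
Pooled signal value (log axis) of 102 nhr peaks against the distance in bp of the summit from the nearest nhr transcript start, negative upstream, with symbols for the number of replicate lists that held the summit. The 5 peaks outside the plotted range are not shown, among them that of nhr-27, and peaks matched in 1 or both replicate lists lie on both sides of the start.

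By gene part, the nhr peaks lay mostly in introns and between genes. An intron held 45 of 107 (42.1%, interval 32.6 to 52), compared with 33.8% of the 5774 peaks assigned to any protein-coding gene by the same rule. Outside protein-coding genes (called intergenic) there were 40 (37.4%, interval 28.2 to 47.3), compared with 41.5%. Coding exons held 17 (15.9%, compared with 17.5%). The 5′ UTRs held 4 (3.74%, compared with 4.35%) and a 3′ UTR held 1 (0.935%, compared with 2.68%). All 45 intronic peaks and 16 of the 17 in coding exons lay inside an nhr gene to which they were assigned. The exception was the peak upstream of nhr-93, which lay in a coding exon of the chemoreceptor gene srbc-67.

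Of the 18 strongest nhr peaks, 10 lay in introns (55.6%, interval 30.8 to 78.5), 7 were intergenic (38.9%, interval 17.3 to 64.3), 1 lay in a 5′ UTR and 0 in coding exons (upper bound 18.5%). Of the 867 peaks among the 1000 strongest that were assigned to any protein-coding gene, 28.4% were intronic, 60.3% intergenic and 4.27% in coding exons. The intronic share over all genes lay just below the interval for the nhr peaks, 3 of whose 10 intronic peaks were in nhr-19. Of the 107, 44 lay within 500 bp of an nhr start (41.1%, interval 31.7 to 51) and 25 within 200 bp (23.4%, interval 15.7 to 32.5). Counting the starts of all protein-coding genes, 48 lay within 500 bp of one (44.9%, interval 35.2 to 54.8) and 28 within 200 bp (26.2%, interval 18.1 to 35.6), compared with 44.7% and 24.3% of the 5774 peaks at any protein-coding gene. Summits lay upstream of the nearest nhr start in 57 cases and downstream in 50. That start can be an internal one, so an upstream summit can lie inside the gene, as did the intronic nhr-46 peak at rank 2100. Of the 107, 13 lay inside an nhr gene but over 2000 bp from any nhr start.

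The nearest protein-coding start was that of an nhr gene for 96 of 107 peaks (89.7%, interval 82.3 to 94.8). The like share was not counted over the peaks at any protein-coding gene, so it is not read as a trait of the nhr peaks. The 11 peaks nearest to the start of another gene included those at nhr-27 and nhr-86 described above. Also among them were a peak at nhr-142, 175 bp from the start of F44E7.9, and a peak at nhr-68, a regulator of the propionate shunt, 95 bp from H12C20.7. In these cases the data do not say which gene, if any, a site serves. A further 7 peaks were assigned to more than 1 nhr gene. These were the peaks shared by nhr-50 with nhr-63 (at ranks 470 and 6506), nhr-207 with nhr-208, nhr-94 with nhr-152, nhr-42 with nhr-107 (at ranks 3571 and 4222), and nhr-84 with nhr-102. The strongest shared peak was that of nhr-50 and nhr-63.

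**Figure D3:**
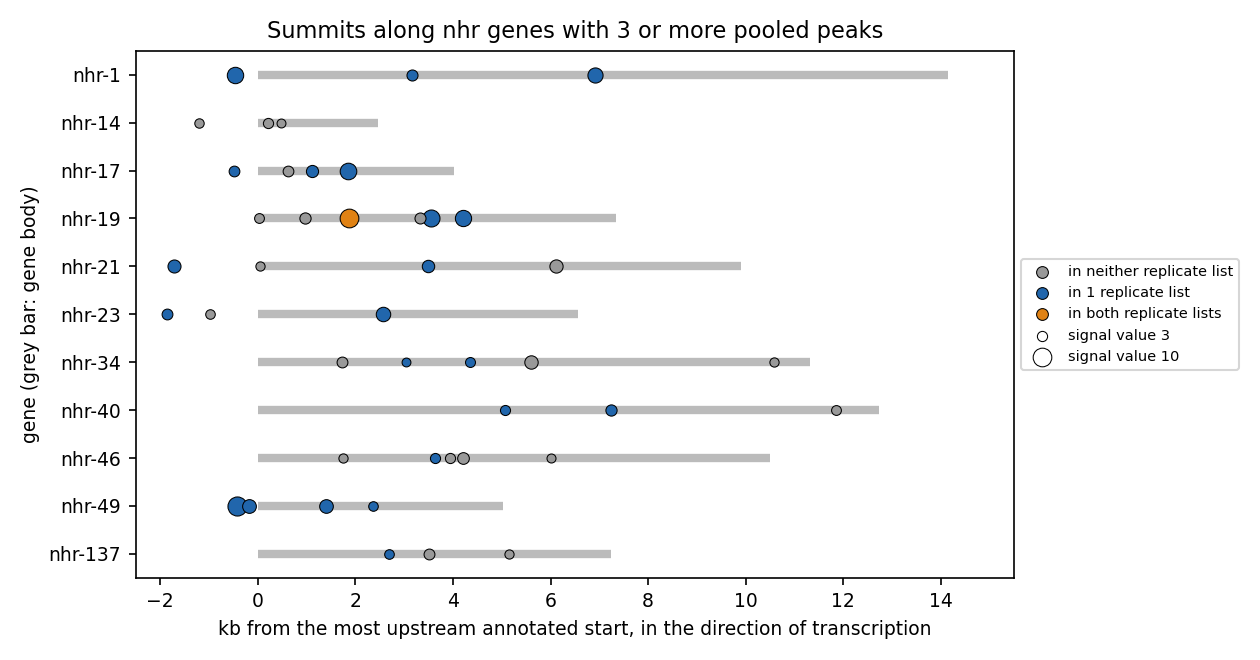
Summits along the nhr genes with 3 or more pooled peaks, in kb from the most upstream annotated start in the direction of transcription, with grey bars for the gene bodies, point area in proportion to the pooled signal value and colour for the number of replicate lists that held the summit. The nhr-27 gene is left out for its length of 102756 bp, and the nhr-19 row shows 6 summits, of which 1 is matched in both replicates.

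At 12 nhr genes there were 3 or more pooled peaks (4.46%), compared with 2.76% of all protein-coding genes. Besides nhr-19, nhr-49, nhr-27, nhr-1 and nhr-23, these were nhr-14, nhr-17, nhr-21, nhr-34, nhr-40, nhr-46 and nhr-137. At nhr-34 and nhr-46 there were 5 peaks each, all but 1 of them in introns at nhr-34 and all in introns at nhr-46, with best ranks of 1314 and 2100. The best peak of nhr-34 was not in either replicate list. At nhr-21 there were 4 peaks over 7823 bp, with a best rank of 1367, and at nhr-17 4 peaks over 2344 bp, of which 3 were matched in a replicate. At nhr-14, which takes part in iron uptake, the 3 peaks ranked from 3595 to 5723 and 0 were in a replicate list. The 3 peaks of nhr-40, a regulator of muscle development, were all intronic, with a best rank of 2559, and 2 were matched in a replicate.

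Longer nhr genes had peaks more often. Genes with a pooled peak had a median length of 3341 bp and those without one 2159 bp, while the median over all nhr genes was 2309 bp and over all protein-coding genes 2026 bp. All protein-coding genes were then divided by length into 4 groups of nearly equal size. In the longest group (3633 bp and over), 33 of 64 nhr genes had a peak (51.6%, interval 38.7 to 64.2), compared with 42.7% of all genes of that length. From 2026 to 3632 bp it was 24 of 109 (22%, interval 14.6 to 31) compared with 26.6%, and from 1214 to 2025 bp it was 11 of 90 (12.2%, interval 6.26 to 20.8) compared with 21.1%. In the shortest group there were 6 nhr genes, of which 0 had a peak (upper bound 45.9%), compared with 23.2%. From 1214 to 2025 bp the share over all genes lay just above the interval for the nhr genes. A longer gene offers a larger window, and its part in these shares was not tested. Per megabase of window searched, the nhr genes held 77.5 peaks (107 in 1.38 Mb), the protein-coding genes 68.9 and the whole chromosomes 66.9.

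**Figure D4:**
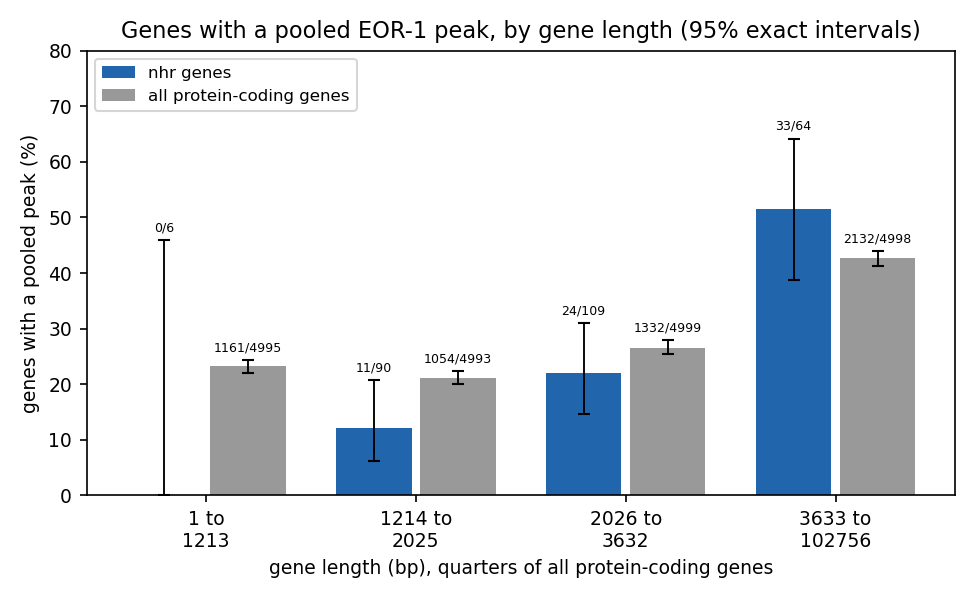
Share of genes with a pooled peak (percent) in 4 groups of gene length in bp, nearly equal in size over all protein-coding genes, for nhr genes (blue) and all protein-coding genes (grey), with exact 95% intervals and counts above the bars. The nhr share is 0 of 6 in the shortest group and 33 of 64 in the longest.

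Most of the family lies on chromosome V, which held 167 of the 269 nhr genes (62.1%) compared with 25% of all protein-coding genes. On chromosome V, 37 of 167 nhr genes had a pooled peak (22.2%, interval 16.1 to 29.2), compared with 20.8% of all genes there. On the other chromosomes together it was 31 of 102 (30.4%, interval 21.7 to 40.3), compared with 30.9%. Within and outside chromosome V the family thus had nearly the same share as all genes. The density was 53.5 peaks per Mb of window for nhr genes on V, compared with 55.5 for all protein-coding genes there, and 100 for nhr genes elsewhere, compared with 72.5.

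The X chromosome had the highest nhr share, 10 of 23 genes (43.5%, interval 23.2 to 65.5) compared with 31.9% of all X-linked genes. For the 1000 strongest peaks the X-linked nhr genes had 5 of 23 (21.7%, interval 7.46 to 43.7), compared with 7.4% of all X-linked genes, a share just below that interval. These genes were nhr-27, nhr-17, nhr-1, nhr-35 and nhr-48. For the 1000 strongest peaks on V the values were 8 of 167 (4.79%, interval 2.09 to 9.22) and 3.72%. For any pooled peak, the nhr counts on the remaining chromosomes were 4 of 15 on II (26.7%, as for all genes there), 2 of 8 on III (25%, compared with 35.9%) and 10 of 33 on IV (30.3%, compared with 27.5%). On chromosome I, 5 of 23 nhr genes had a pooled peak (21.7%, interval 7.46 to 43.7), compared with 34.6% of all genes. All chromosomes were looked at, and with 8 to 33 genes on each besides V the intervals are wide.

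**Figure D5:**
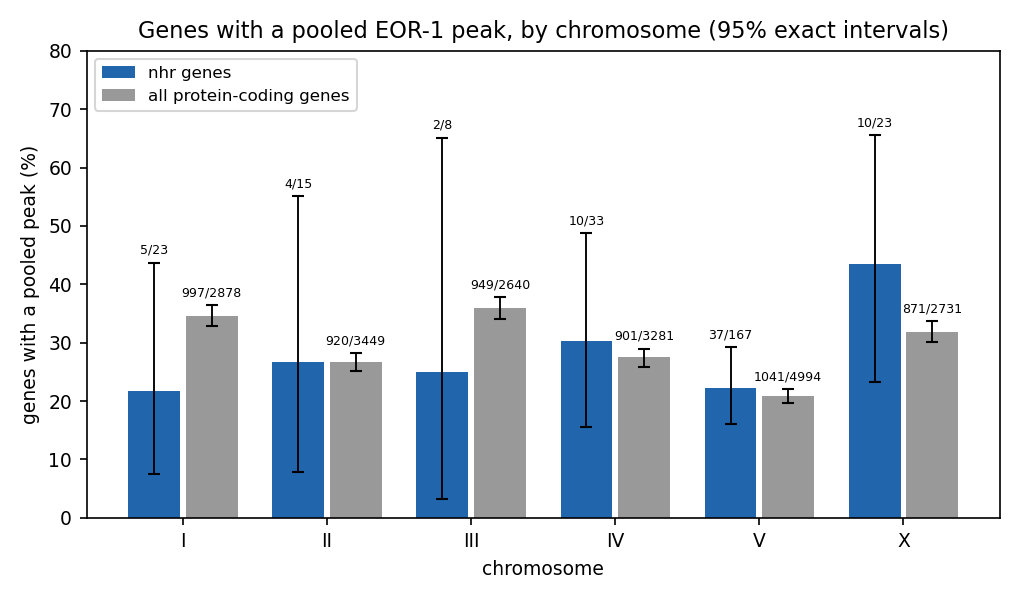
Share of genes with a pooled peak (percent) by chromosome for nhr genes (blue) and all protein-coding genes (grey), with exact 95% intervals and counts above the bars. The nhr share runs from 5 of 23 genes on I to 10 of 23 on X, and on V it is 37 of 167 beside 1041 of 4994 for all genes.

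Of the 269 nhr genes, 137 lay next to another nhr gene (50.9%). Of these, 29 had a pooled peak (21.2%, interval 14.7 to 29), compared with 39 of 132 nhr genes without an nhr neighbour (29.5%, interval 21.9 to 38.1). On chromosome V the shares were 22.4% and 21.7%, and elsewhere 5 of 30 (16.7%, interval 5.64 to 34.7) and 26 of 72 (36.1%, interval 25.1 to 48.3). The intervals overlapped in each case. Clustered receptors are often similar in sequence, which can affect how reads are placed. Uniqueness was measured by 32-base words over the search window, which is the gene with 2000 bp on either side of each start. The median unique share of a window was 99.8% for nhr genes with a peak and 99% for those without. Windows under 90% unique belonged to 7 of 68 (10.3%) and 33 of 201 (16.4%), compared with 19.4% of all protein-coding genes. Gene bodies were not measured apart from their flanks. Read length was not given, and the part of read placement in the counts was not tested.

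Among receptors with orthologues outside nematodes, 6 of the 12 listed had a pooled peak (50%), 3 had one among the 1000 strongest and 0 had one matched in both replicates. Over all protein-coding genes the shares were 28.4%, 5.83% and 3.17%. The list held 8 nhr genes and the receptors daf-12, fax-1, unc-55 and sex-1. Besides nhr-23 and nhr-48, a peak among the 1000 strongest lay at daf-12, the receptor for dafachronic acids that controls dauer formation and developmental timing. Its best peak, in an intron, ranked 584 with a signal of 7.57, and ranked 42 in replicate 2 with no counterpart in replicate 1. A second daf-12 peak, at rank 1843, was also matched in replicate 2 only. The gene is 30968 bp long and held 4 peaks in all.

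The other peaks of these receptors were weaker. At unc-55, the COUP-TF orthologue that sets motor neuron identity, an intronic peak ranked 2717 and 603 in replicate 2, with the start of F55D12.6 nearest to it. At sex-1, which takes part in counting X chromosomes, a peak ranked 5107, and at nhr-85, the Rev-erb orthologue, a peak ranked 6686, both with no summit in a replicate list. No pooled peak was assigned to nhr-6 (the NR4A orthologue), nhr-8 (a receptor in xenobiotic resistance and cholesterol balance), nhr-25 (the orthologue of SF-1 and FTZ-F1, required for molting and epidermal development), nhr-41 (related to TR2 and TR4), nhr-67 (the tailless orthologue) or fax-1 (the PNR orthologue). Of the 6 receptors listed for molting and epidermal timing, nhr-23 and nhr-85 had peaks (33.3%, beside 28.4% of all protein-coding genes). The others, nhr-25, nhr-41, nhr-67 and nhr-91, had none.

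Of the 16 listed HNF4-related receptors with studied roles in metabolism or stress, 9 had a pooled peak (56.2%), 2 had one among the 1000 strongest (nhr-49 and nhr-86) and 1 had one matched in both replicates (nhr-86), beside the same 28.4%, 5.83% and 3.17% of all protein-coding genes. A peak 84 bp upstream of nhr-57, a gene induced in hypoxia through HIF-1, ranked 1304 with a signal of 5.18 and 1019 in replicate 1. Of the partners of NHR-49, nhr-66 had peaks at ranks 2194 and 2900, while nhr-80 and nhr-13 had none. The nhr-10 and nhr-68 genes, which act together in activating the propionate shunt, had a peak each at ranks 2856 and 4646, both matched in replicate 1. Single peaks also lay at nhr-76 (rank 4177) and nhr-114 (rank 5404), and no peak was assigned to nhr-28, nhr-62, nhr-64, nhr-69 or nhr-112. These lists were drawn up with earlier results of these data known and hold well-studied, often longer genes, so their shares were not compared by a test.

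Among genes that make receptor ligands or act with the receptors, the strongest peaks lay at 2 cofactor genes, din-1 and cbp-1. The list named 15 genes, receptors with other names included, of which 14 were matched in the annotation and 5 had a pooled peak (35.7%), 3 of them among the 1000 strongest and 2 matched in both replicates, again beside 28.4%, 5.83% and 3.17% of all protein-coding genes. The 3 were daf-12, din-1 and cbp-1. The din-1 gene, which encodes the corepressor of DAF-12, held 9 peaks, of which the best ranked 207 with a signal of 11.4, lay 773 bp upstream of a start and ranked 285 in replicate 1 and 194 in replicate 2. At cbp-1, which encodes the CBP and p300 acetyltransferase, the best peak ranked 79 with a signal of 15.6, lay 919 bp upstream and ranked 705 in replicate 1 and 44 in replicate 2. No pooled peak was assigned to daf-9, the cytochrome P450 that makes the DAF-12 ligand, to daf-36, dhs-16, hsd-1, emb-8 or strm-1, or to mdt-15, the Mediator subunit that acts with NHR-49. The receptor gene odr-7, which specifies the AWA olfactory neuron, had none either.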

How the data were processed

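EOR-1 ChIP-seq was measured in 2 biological replicates of L3 larvae, numbered in the labels and forming 1 group. The authors deposited narrowPeak lists, whose signal value per peak is the peak caller's own. Per the deposited file notes, replicate and pooled lists served as input to the irreproducible discovery rate procedure, background included. Not given in the sources used here are the aligner, peak caller, normalization, threshold and read depth. The ce11 lists were used and the ce10 lists were not.

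Pooled peaks were ranked by signal, with ties in order of position (3909 peaks shared a value with another, 55 of them among the 1000 strongest). Summits were assigned to every protein-coding gene that held them or had a transcript start within 2000 bp, and placed by gene part, with a 5′ UTR taking precedence over coding exons, these over a 3′ UTR and any exon over introns. A summit within 200 bp in a replicate list counted as support. Computation used Python 3.11.15, NumPy 2.4.6 and SciPy 1.17.1. The window search was checked on simulated data, where 100 of 100 planted summits were placed as planted. They were planted with the same gene bounds, starts and distance that the search uses. The check therefore does not cover the reading of coordinates, the gene parts or the signed distances.

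The members, gene lists and motifs were chosen with earlier results of these data known. The splits by gene length, neighbour and gene number and the uniqueness of sequence were added after the data were seen. No set test was made. Shares are read beside those over all protein-coding genes or all pooled peaks. Exceptions are the split of nhr genes by neighbour and the places where the text says that no such share was counted. Some plain counts also lack one, such as those of shared peaks, of upstream and downstream summits and of summits over 2000 bp from a start. Named are nhr genes with a peak among the 1000 strongest or matched in both replicates, the listed genes, and nhr genes that share a peak or hold 3 or more. Outside this rule, nhr-142, nhr-70, nhr-12 and nhr-3 were named for a motif match and nhr-93 for its position, after their values were seen. The 1 listed gene with no entry under its name was not counted. Alternatives covered distances, list lengths, each replicate alone, the thresholded list and motif windows.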

Additional observations from a re-analysis of the deposited data

How the results depend on the processing

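Of 38 alternatives over 7 results, 28 were labelled close to the reported value and 10 were labelled moved. Close was a loose label and is not read as stability. For the 17 nhr genes with a strong peak it took in 12 (replicate 1) and 24 (2000 strongest). For the 5 genes matched in both replicates it took in 7 (summits within 500 bp). Shares labelled close included 10.3% beside 6.54% for AGACGCA (200 bp window) and 42.1% beside 32.7% for GAGAGA (replicate 1). The 68 nhr genes with a pooled peak became 30 to 33 in 1 replicate list alone (11.2% and 12.3%, beside 12.7% and 13.2% of all genes). They became 39 when a summit in at least 1 replicate list was required, where the share over all genes was not counted. With the thresholded list they became 0, beside 0.2% of all genes. With a distance of 500 bp the share was 21.2% beside 19.3%, and by the nearest start alone 21.2% beside 19%, so whether the family lay above or below all genes changed with the assignment. The 17 nhr genes with a peak among the 1000 strongest became 7 for the 500 strongest (2.6% beside 3.06%). They became 12 in replicate 1 (4.46% beside 5.48% of all genes) and 16 in replicate 2 (5.95% beside 5.82%). The 5 genes matched in both replicates became 3 when only the nearest start counted, where the share over all genes was not counted. The AGACGCA share of 6.54% ranged from 0 to 4.65% in the replicate lists and was 1.87% within 50 bp and 10.3% within 200 bp. The GAGAGA share of 32.7% was 17.8% within 50 bp and 44.9% within 200 bp. For these windows and lists, neither motif was counted over all peaks, and a longer window holds at least as many matches. Shares of peaks outside genes and of nearest starts changed little under the alternatives tried. No paired analysis was possible because there is 1 group. Counts of genes set the precision, and the depth of sequencing is unknown.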

Other observations

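Low-numbered nhr genes had pooled peaks more often than the rest, a split that was made after the values were seen. Of nhr-1 to nhr-50, 23 of 47 genes had a pooled peak (48.9%, exact interval 34.1 to 63.9), compared with 45 of 222 genes numbered 51 and above (20.3%, interval 15.2 to 26.2). Over all protein-coding genes the share was 28.4%, and over those of 3633 bp and more it was 42.7%, inside the interval for the low-numbered genes. The low-numbered genes were also longer than the other nhr genes, with a median of 4018 bp compared with 2173 bp. Outside chromosome V the shares were 18 of 35 (51.4%) and 13 of 67 (19.4%), with median lengths of 4856 and 2408 bp. On V they were 5 of 12 (41.7%, interval 15.2 to 72.3) and 32 of 155 (20.6%), with median lengths of 2417 and 2140 bp. The part of gene length in the difference between the shares was not tested.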
